A study of Mus musculus with 14 samples.

Results

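The Hes and Hey repressors are a small family of basic helix-loop-helix transcription factors. The 9 genes described here, *Hes1*, *Hes2*, *Hes3*, *Hes5*, *Hes6*, *Hes7*, *Hey1*, *Hey2* and *Heyl*, were taken as a family by symbol through their RefSeq accessions, and all 9 were found among the 23122 loci of the RNA-seq tables. The RNA-seq data are 11 libraries with 1 library per condition. They come from mouse C57BL/6 ES cells of the JM8 clone, labelled wild type (WT), and of the Taf9b_BG10 clone, labelled TAF9B -/- (here *Taf9b* KO), taken as undifferentiated cells and as embryoid bodies (EBs) on days 2, 4 and 6 of motor neuron differentiation. The other libraries come from newborn spinal column labelled WT or KO and newborn spinal cord labelled WT. The ChIP-seq data are peak lists for TAF9B and RNA POL2 from WT EBs of the HBG3 clone, which the methods of the study place at day 8. An IgG library was also made from these EBs and is not analysed here.

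Per the methods of the study, all cultures were differentiated with retinoic acid and the smoothened agonist SAG, the HBG3 cells carry GFP driven by the motor neuron promoter of *Mnx1*, and the KO allele has a *LacZ-Neo* cassette in place of the coding exons of the X-linked *Taf9b* gene. The JM8 and KO ES cells were kept on a layer of inactivated embryonic fibroblasts, whose RNA can be part of the ES libraries. Each genotype in culture is 1 clone, and a difference between genotypes cannot be told apart from a difference between clones. The tissue libraries carry the names of the same clones in their labels, and the number of animals behind each is not given in the sources used here. With 1 library per condition there is no spread between replicates and no test, so differences are described by their size. A gene was called when it was above 1 FPKM (fragments per kilobase of transcript, scaled to the mapped fragments of a library, as deposited) in at least 1 of both libraries and differed by more than 2-fold, and each count of called members is set beside the share of all loci called in the same way.

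Hes and Hey proteins are the best known targets of Notch signaling. When a Delta or Jagged ligand on a neighbouring cell binds a Notch receptor, proteases release the receptor's intracellular domain, which enters the nucleus and, with the DNA-binding protein RBPJ and a Mastermind coactivator, switches on *Hes* and *Hey* genes. Their products bind DNA, and the Hes proteins recruit Groucho/Tle corepressors. In the neural tube HES1 and HES5 hold cells as progenitors by repressing proneural genes such as *Neurog2*. HES6 is an atypical member that counteracts HES1 and is known from differentiating neurons, HES7 is known from the segmentation clock of the embryo, HES3 from early neural progenitors, and the HEY proteins from blood vessels and heart.

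The sequences at 3 of these genes are shown first because they are the places where the later results meet: the promoters of *Hes1*, *Hes5* and *Hes6*, and TAF9B peaks upstream of *Hes5* and *Hes6*. They were read from the NCBIM37 (mm9) mouse genome, the build of the deposited files, 5′ to 3′ on the strand of the gene, and stop before any annotated exon of the gene. Capitals mark TGGGAA, the core of the RBPJ binding motif, or its reverse complement TTCCCA, and TATAAA, a form of the TATA box. No marked matches overlap in the sequences shown. The *Hes1* stretch is at chr16:30065193-30065425 on the plus strand, the *Hes5* promoter at chr4:154334782-154335031 on the plus strand and the *Hes6* promoter at chr1:93309800-93310049 on the minus strand.
Hes1 promoter: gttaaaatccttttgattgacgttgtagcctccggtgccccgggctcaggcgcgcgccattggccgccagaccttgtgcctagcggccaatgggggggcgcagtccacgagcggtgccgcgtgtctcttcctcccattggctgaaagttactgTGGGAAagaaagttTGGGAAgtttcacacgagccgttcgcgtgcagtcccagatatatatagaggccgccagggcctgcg
Hes5 promoter: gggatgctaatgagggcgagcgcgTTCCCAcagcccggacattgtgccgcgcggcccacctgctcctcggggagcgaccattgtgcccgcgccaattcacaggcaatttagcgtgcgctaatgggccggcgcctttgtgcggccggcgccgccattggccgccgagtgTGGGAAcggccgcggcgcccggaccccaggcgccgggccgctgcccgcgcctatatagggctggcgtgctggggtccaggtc
Hes6 promoter: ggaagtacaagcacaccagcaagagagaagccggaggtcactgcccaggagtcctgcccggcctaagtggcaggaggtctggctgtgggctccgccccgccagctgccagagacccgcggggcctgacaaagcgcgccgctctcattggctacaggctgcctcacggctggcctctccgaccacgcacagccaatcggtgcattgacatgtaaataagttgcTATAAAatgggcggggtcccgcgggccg

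*Hes1* held TGGGAA at positions 154 and 168 of this stretch, both in the direction of the gene. *Hes5* held TTCCCA at position 25 and TGGGAA at position 169, in opposite directions. *Hes6* held no TGGGAA in either direction, and its TATAAA began 28 bases before the transcription start site (TSS). In the 250 bases before the TSS, TGGGAA or its reverse complement was present in 4 of the 9 members (*Hes1*, *Hes5*, *Hes7* and *Hey2*) and in 20.8% of 20830 annotated promoters of the same length. TATAAA, searched on both strands, was present in 2 of the 9 (*Hes6* and *Heyl*) and in 11.8% of all promoters. Only these exact letters were searched, so promoters without a match can still hold another form of the TATA box. CACGNG, a site that Hes and Hey proteins themselves are known to bind, was present in 4 of the 9 (*Hes1*, *Hes2*, *Hes7* and *Hey1*) and in 27.3% of all promoters, and *Hes1* held it 4 times. A match is a description of the letters and does not show that a factor bound there.

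The 3 TAF9B peaks shown next are the one just upstream of *Hes6* and both peaks upstream of *Hes5* whose nearest TSS is that of *Hes5*. The *Hes6* stretch, chr1:93310616-93310872 on the minus strand, leaves out the first exon of an alternative *Hes6* transcript that the peak overlaps. The *Hes5* peaks are at chr4:154332341-154332554 and chr4:154320519-154320805 on the plus strand.
Hes6 upstream peak: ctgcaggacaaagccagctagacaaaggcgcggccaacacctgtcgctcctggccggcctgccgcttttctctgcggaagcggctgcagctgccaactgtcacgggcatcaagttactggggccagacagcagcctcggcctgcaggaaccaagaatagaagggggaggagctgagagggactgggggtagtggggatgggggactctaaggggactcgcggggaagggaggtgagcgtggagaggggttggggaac
Hes5 near peak: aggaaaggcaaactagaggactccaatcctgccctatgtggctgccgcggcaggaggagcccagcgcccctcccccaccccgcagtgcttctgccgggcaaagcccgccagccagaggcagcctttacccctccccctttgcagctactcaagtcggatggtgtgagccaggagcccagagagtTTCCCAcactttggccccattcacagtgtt
Hes5 far peak: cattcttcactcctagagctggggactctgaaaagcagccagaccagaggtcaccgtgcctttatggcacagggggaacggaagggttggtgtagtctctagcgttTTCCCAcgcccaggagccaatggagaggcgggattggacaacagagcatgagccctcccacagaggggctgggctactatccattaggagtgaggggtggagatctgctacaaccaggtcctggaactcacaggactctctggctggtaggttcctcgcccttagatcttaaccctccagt

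Each of these *Hes5* peaks held a single TTCCCA, at position 185 of the near peak and 107 of the far peak. The printed *Hes6* peak held none, nor did the *Hes5* peak 16.4 kb upstream, which is not printed. Over the central 200 bases of all 10402 TAF9B peaks on assembled chromosomes, 18.7% held TGGGAA on either strand. Of 8 such windows at peaks with a member as the nearest gene, counting the *Hes5* peak at 16.4 kb, 3 did. The study's ChIP primer pair named Hes6 Distal lies inside the *Hes6* peak, spanning chr1:93310704-93310870, 988 bp upstream of the *Hes6* TSS. It is shown because it places the tested site within the printed peak.
Hes6 Distal primer a: cctcccccttctattcttgg
Hes6 Distal primer b: gcaggacaaagccagctaga

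*Taf9b*, the targeted gene (NM_001001176, chromosome X), did not follow the labels in culture. It was at 0.537 FPKM in the ES library labelled WT and 3.06 in the one labelled KO. On days 2, 4 and 6 it was at 0.516, 1.96 and 1.37 FPKM in the libraries labelled WT and at 4.08, 4.27 and 4.01 FPKM in those labelled KO. In spinal column it was lower under the KO label, 3.31 against 6.65 FPKM (log2 ratio -1.01). These values cover the whole transcript annotation, so reads from parts of the gene outside the replaced exons count toward them. Genotypes are therefore given below as the labels state them. Whether the WT and KO labels of the culture libraries were exchanged cannot be settled from these values. An exchange would turn the sign of every culture ratio between labels. The study also measured *Taf9b* and neuronal markers in WT and KO cells by qRT-PCR and western blot. Those measures bear on an exchange and were not used here.

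Summed levels of cell type markers also differed between labels. At day 4 the summed level of 4 neural progenitor markers (*Pax6*, *Olig2*, *Sox1* and *Nkx6-1*) was 230 FPKM under the WT label and 44.1 FPKM under the KO label, while 4 pluripotency markers (*Pou5f1*, *Nanog*, *Klf4* and *Esrrb*) summed to 26.2 and 167 FPKM. At day 6, 5 neuron markers (*Tubb3*, *Elavl3*, *Isl1*, *Mnx1* and *Lhx3*) summed to 621 and 44.8 FPKM, and the pluripotency markers to 293 and 823 FPKM. The day 6 library labelled WT and motor neuron thus also held *Pou5f1*, at 198 FPKM. The smooth muscle markers *Acta2*, *Tagln* and *Myh11*, of which fibroblasts also express the first pair, summed to 309 and 321 FPKM in the ES libraries and to 5.01 and 4.01 FPKM on day 2. In bulk RNA, fewer cells of a type and less RNA per cell cannot be told apart, and the part of these differences in the results below was not tested. Absolute depth is unknown. From the commonest ratio among the lowest FPKM values, 1 fragment was worth 1.28 times as much in the library labelled KO as in that labelled WT in ES cells, 1.18 times on day 2, 0.92 times on day 4 and 0.707 times on day 6.

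*Hes1* kept nearly the same level under both labels in culture. It was at 14.9, 17.5, 47.5 and 39.0 FPKM in the libraries labelled WT from ES cells to day 6, and at 14.4, 16.3, 40.9 and 33.6 FPKM in those labelled KO. Its log2 ratio, KO label over WT label, stayed between -0.04 and -0.22 in the 4 culture tables. *Hes1* was 2.71-fold higher on day 4 than on day 2 under the WT label and 2.51-fold higher under the KO label.

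*Hes5*, the other main Notch effector of neural progenitors, was the member with the largest difference between labels. It was near the lower end of the tables in ES cells, at 0.135 FPKM under the WT label and 0.138 under the KO label, and on day 2, at 0.185 and 0.314 FPKM. On day 4 it reached 71.0 FPKM under the WT label against 3.61 FPKM under the KO label, a 19.7-fold difference (log2 ratio -4.30). On day 6 the values were 24.4 and 0.533 FPKM, a 45.7-fold difference (log2 ratio -5.52). With 1 FPKM added to both values the log2 ratios were -3.96 on day 4 and -4.05 on day 6, so the larger difference on day 6 rests on the low value under the KO label. The gene was therefore high only in the day 4 and day 6 libraries labelled WT among the 8 culture libraries. Under the KO label *Hes5* was still 11.5-fold higher on day 4 than on day 2, against 384-fold under the WT label. Both steps start from levels below 1 FPKM, and the table of each day was normalised separately. GENCODE lists a non-coding transcript on the opposite strand across the *Hes5* TSS, and strand was not given for the libraries, so their reads could not be separated.

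*Hes6* changed order between labels along the course. It was at 11.5 and 13.5 FPKM in ES cells labelled WT and KO. On day 2 it was at 25.8 and 44.6 FPKM (log2 ratio 0.79, not past 2-fold), on day 4 at 15.6 and 10.9 FPKM (log2 ratio -0.51), and on day 6 at 53.2 and 16.1 FPKM (log2 ratio -1.72). The WT label thus had its maximum on day 6 and the KO label on day 2. From day 2 to day 4 *Hes6* was 4.09-fold lower under the KO label and 1.66-fold lower under the WT label, and only the former passed 2-fold. From day 4 to day 6 it was 3.41-fold higher under the WT label and 1.47-fold higher under the KO label.

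*Hey1*, a Notch effector best known from blood vessels, had similar values under both labels until day 4 and then separated. The libraries labelled WT gave 1.81, 3.44, 7.86 and 12.2 FPKM and those labelled KO 1.57, 3.07, 6.32 and 1.91 FPKM. On day 6 the log2 ratio was -2.68, a 6.40-fold difference. The summed level of 4 endothelial markers (*Pecam1*, *Cdh5*, *Kdr* and *Tek*) was in the opposite order on day 6, at 7.35 FPKM under the WT label and 21.8 under the KO label, most of it *Pecam1*, which ES cells also express. Of the other 3, *Cdh5* was at 0.159 and 1.44 FPKM, *Tek* at 0.453 and 0.628 FPKM, and *Kdr*, in the other order, at 0.487 and 0.376 FPKM. *Hey2*, its closest relative, peaked on day 4 under both labels, at 2.90 and 2.18 FPKM, and was at 1.43 and 1.15 FPKM on day 6 (log2 ratio -0.31).

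**Figure D1:**
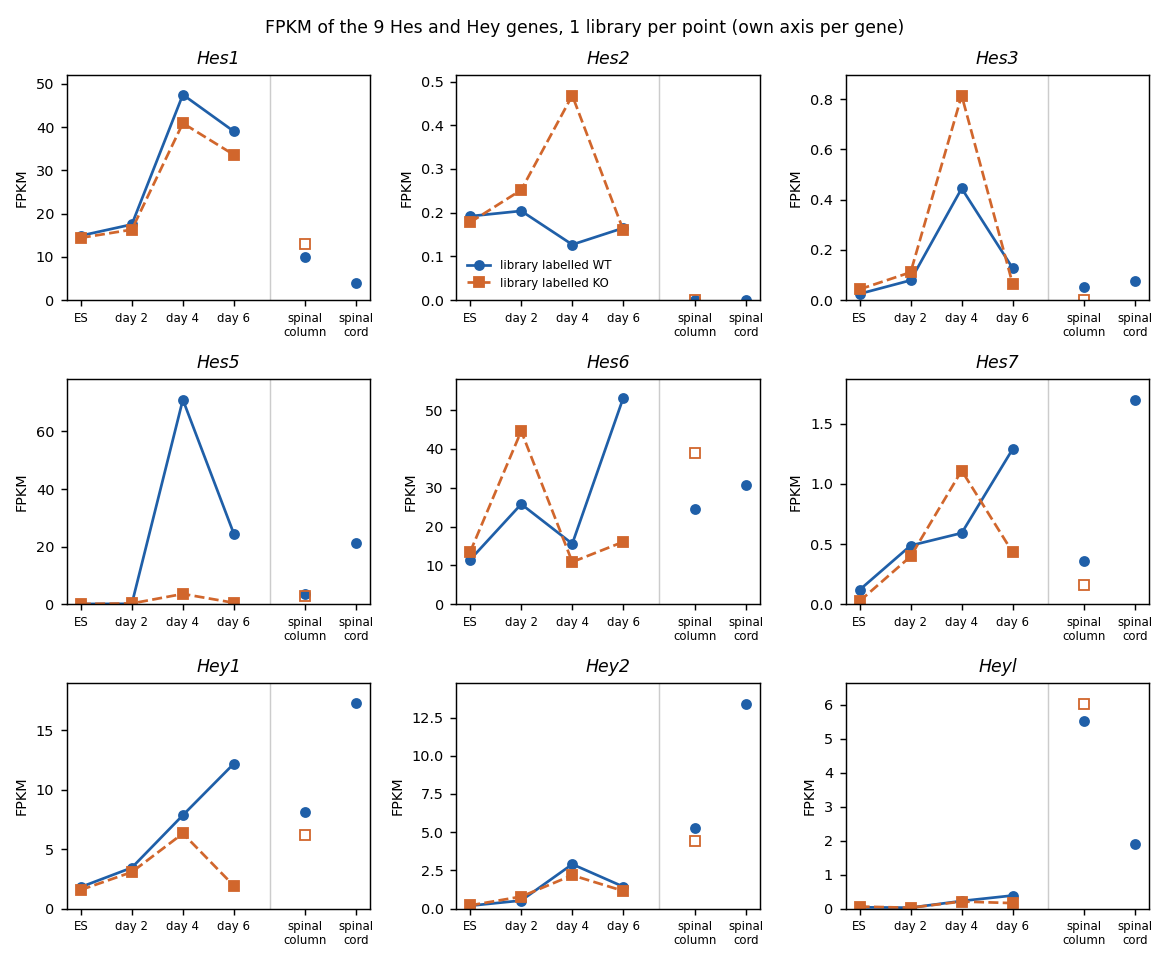
FPKM of each gene (y axis, own scale per panel) in ES cells, on days 2, 4 and 6, and in newborn spinal column and spinal cord (x axis), with blue circles for libraries labelled WT and orange squares (open in tissue) for those labelled KO, 1 library per point. The *Hes5* panel separates the labels on days 4 and 6, the *Hes1* curves run side by side, and the *Hes6* curves cross between days 2 and 4.

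The remaining 4 members were low in culture. *Hes7* was above 1 FPKM only in the day 4 library labelled KO (1.11 FPKM, against 0.592 under the WT label) and the day 6 library labelled WT (1.29, against 0.431 under the KO label, log2 ratio -1.58). *Hes3* reached 0.815 FPKM under the KO label and 0.445 under the WT label on day 4 and was at most 0.127 FPKM in the other culture libraries. *Hes2* lay between 0.127 and 0.468 FPKM and *Heyl* between 0.0239 and 0.383 FPKM in culture. At such levels a value can rest on a few reads, and for *Hes2*, *Hes3* and *Heyl* no order is drawn between labels.

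In ES cells 3 members passed 1 FPKM and 0 of them were called, where 1.13% of 12025 loci were called in either direction. On day 2 the counts were again 3 and 0, with 2.57% of 11962 loci called. On day 4, 6 members passed, 1 was called lower under the KO label (*Hes5*) and 0 higher, where 4.44% of 12555 loci were called lower and 12.1% higher. On day 6, 4 of 6 were called lower (*Hes5*, *Hey1*, *Hes6* and *Hes7*) and 0 higher, where 9.92% of 13000 loci were called lower and 10.5% higher. *Hes1* and *Hey2* were the exceptions on day 6. *Hes5* and *Hes7* passed 1 FPKM on day 6 only through the library labelled WT, where they were higher, so the count of 4 is not read as support. Requiring more than 1 FPKM in both libraries left 2 calls on day 6, *Hey1* and *Hes6*, and adding 1 FPKM to both values brought *Hes7* to a log2 ratio of -0.68.

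**Figure D2:**
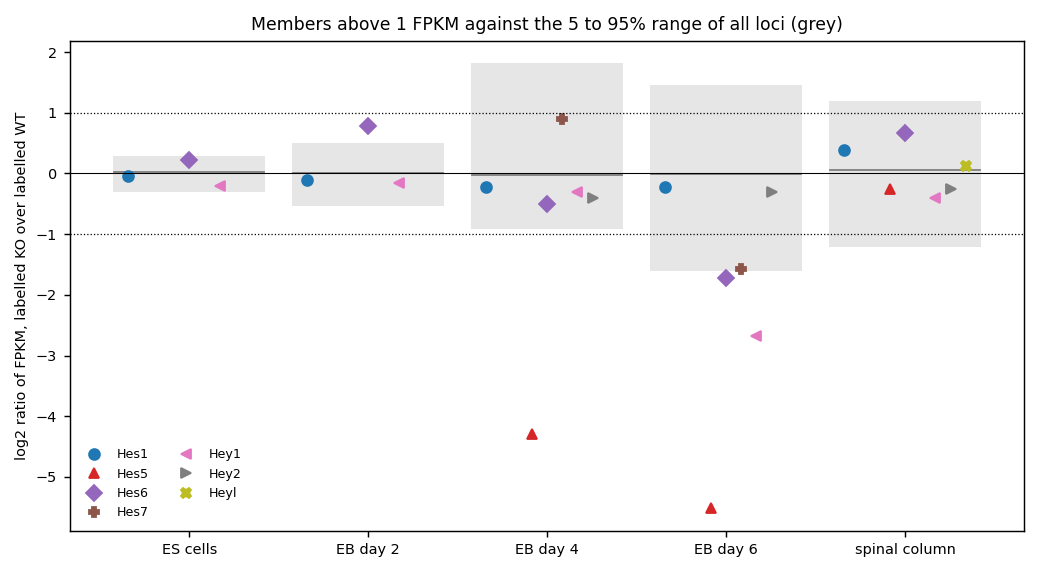
Log2 ratio of FPKM, library labelled KO over library labelled WT (y axis), for each member above 1 FPKM in the 5 tables (x axis). Grey bars span the 5 to 95% range of all loci above 1 FPKM with their median as a line, and dotted lines mark 2-fold. *Hes5* lies below the grey range on days 4 and 6, *Hey1* and *Hes6* below it on day 6, and *Hes6* above it on day 2.

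Along the WT course, 1 member was called higher from ES cells to day 2 (*Hes6*, where 5.27% of all loci were). From day 2 to day 4, 4 of 5 were higher (*Hes1*, *Hes5*, *Hey1* and *Hey2*, against 15.6% of loci). From day 4 to day 6, 2 of 6 were higher (*Hes6* and *Hes7*, against 17% of loci) and 2 lower (*Hes5* and *Hey2*, against 9.97%). Along the KO course, 1 member was higher at the first step (*Hes6*, against 6.01% of loci). At the second step 5 of 6 were higher (*Hes1*, *Hes5*, *Hes7*, *Hey1* and *Hey2*, against 15.4%) and 1 lower (*Hes6*, against 7.73%). At the last step 3 of 6 were lower (*Hes5*, *Hes7* and *Hey1*, against 11.1%). *Hes5* and *Hey2* under both labels, and *Hes7* under the KO label, passed 1 FPKM at the step to day 4 only through day 4, where they were higher. With 1 FPKM required in both libraries, 2 calls were left at that step under the WT label and 3, with *Hes6*, under the KO label. At the step to day 6, *Hes7* passed only through the day where it was higher under each label, as did *Hes5* under the KO label, and 1 of the 3 KO calls, that of *Hey1*, was left with 1 FPKM required in both libraries. With 1 FPKM added, *Hes7* (0.52) and *Hey2* (-0.68) came inside 2-fold under the WT label, which left 2 calls. *Hes1* was called higher on day 4 under both labels. With 1 FPKM added, the *Hey1* call at that step came just inside 2-fold under the WT label. Under the KO label those of *Hey1* (log2 ratio 0.85), *Hey2* (0.84) and *Hes7* (0.59) did so, and *Hey1* also when centred (0.96). *Hey1* was called lower on day 6 under the KO label alone (3.32-fold), its value being 1.55-fold higher under the WT label. Successive steps share the library of the day between them.

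The make-up of the family shifted with these changes. The 9 genes summed to 28.9, 48.3, 146 and 132 FPKM in the libraries labelled WT and to 30.1, 65.9, 66.5 and 54.1 FPKM in those labelled KO. *Hes1* was the highest member in ES cells and *Hes6* on day 2 under both labels. On day 4 *Hes5* made up 48.6% of the sum under the WT label and 5.43% under the KO label, where *Hes1* made up 61.5%. On day 6 *Hes6* led under the WT label with 40.2% and *Hes1* under the KO label with 62.1%. Among the members above 1 FPKM, *Hes1* was also the one that differed least between labels on both days.

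**Figure D3:**
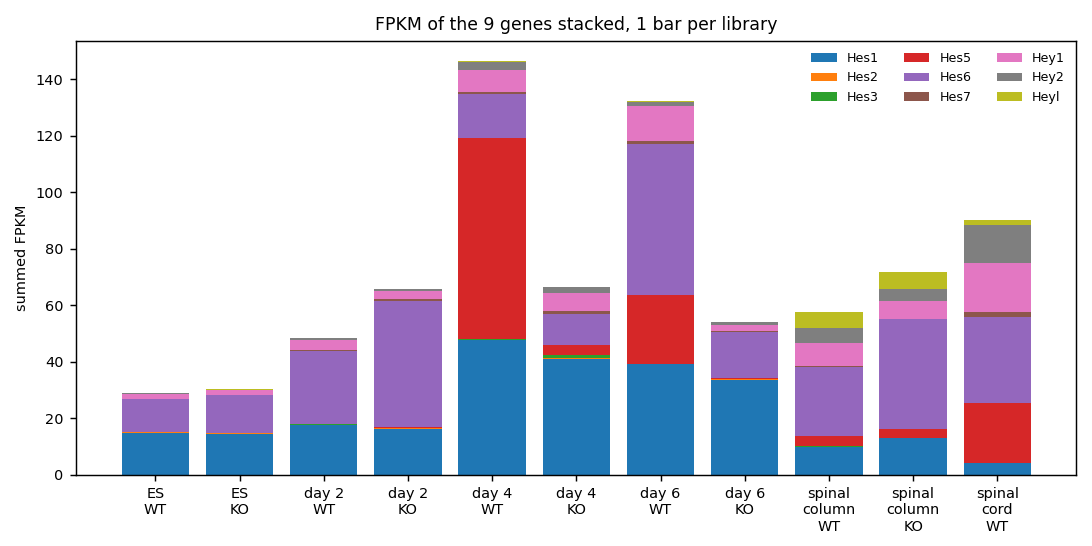
Summed FPKM of the 9 genes (y axis) in each of 11 libraries (x axis), stacked by gene. The day 4 and day 6 bars labelled WT reach 146 and 132, those labelled KO 66.5 and 54.1, and the red *Hes5* segment is prominent in the day 4 and day 6 bars labelled WT and in spinal cord.

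In newborn tissue the family looked different from culture. *Hes6* was the highest member in all 3 tissue libraries, at 24.6 FPKM in spinal column labelled WT, 39.0 in spinal column labelled KO and 30.6 in spinal cord. *Heyl*, a Hey gene known from vascular smooth muscle, was at 5.53 and 6.02 FPKM in spinal column and 1.91 in spinal cord, above its 0.383 maximum in culture. *Hes2* was listed at 0 in all 3 tissue libraries. Between spinal column labelled WT and KO, 0 of 6 members above 1 FPKM were called, where 17.6% of 14253 loci were called in either direction. *Hes5* was at 3.65 and 3.05 FPKM there (log2 ratio -0.26), so the difference seen on days 4 and 6 had no counterpart of that size in this pair. The values nearest to 2-fold were those of *Hes6* (log2 ratio 0.66), *Hey1* (8.13 and 6.15 FPKM, log2 ratio -0.40) and *Hes1* (9.92 and 13.0 FPKM, log2 ratio 0.38). The summed skeletal muscle markers (*Acta1*, *Myh3*, *Myog* and *Ckm*) of these libraries were 3921 and 334 FPKM, a gap carried mostly by *Ckm*, at 3407 FPKM under the WT label and listed at 0 under the KO label. *Acta1* was listed at 0 in both, *Myh3* was at 420 and 218 FPKM, and *Myog* was in the other order, at 92.8 and 116 FPKM. The neuron markers summed to 372 and 225 FPKM, and the part of this in the ratios was not tested.

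Against ES cells, 6 of 7 members above 1 FPKM were called higher in spinal cord, where 30.5% of 14384 loci were called higher, and 1 lower (*Hes1*), where 35.7% were. *Hes5*, *Hey2*, *Heyl* and *Hes7* passed only through spinal cord, where they were higher, and 3 calls were left with 1 FPKM required in both libraries, those of *Hes1*, *Hes6* and *Hey1*. *Hes5* was at 0.147 FPKM in ES cells and 21.2 in spinal cord, *Hey2* at 0.202 and 13.4, *Heyl* at 0.0395 and 1.91, *Hes7* at 0.131 and 1.70, and *Hey1* at 1.97 and 17.3. *Hes6* was at 12.6 and 30.6 FPKM, and *Hes1*, unlike the rest, at 16.2 and 4.06 FPKM (log2 ratio -1.99). The summed smooth muscle markers were at 336 FPKM in the ES library and 8.32 in spinal cord, in the order of *Hes1*, and the part of this in its ratio was not tested. The median log2 ratio of all loci in this table was -0.26. The ES library here is the one labelled WT above, listed with values 1.09 times higher for every member.

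Genes that make, carry or oppose the Notch signal were read from a list written by role. The list also holds genes of the Groucho/Tle family, Id genes, bHLH relatives of the members and proneural genes. It names 53 genes, of which 51 were found. On day 4, 45 of these passed 1 FPKM, 6 were called higher under the KO label, a share near the 12.1% of all loci, and 10 lower, where 4.44% of all loci were. On day 6, 46 passed, 2 were called higher, where 10.5% of all loci were, and 15 lower, where 9.92% were. The counts of each role below stand against these same shares, and most roles hold too few genes to be read apart from them. Proneural genes gave 4 of the 10 lower calls on day 4 and Id genes 2. On day 6 they gave 5 and 1 of the 15. The 2 higher calls on day 6 were those of bHLH relatives. In ES cells 39 passed, 1 was called higher (*Id2*) and 0 lower, where 65 and 71 of 12025 loci were. On day 2, 38 passed, 1 was called higher (*Dlk1*) and 0 lower, where 142 and 165 of 11962 loci were.

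Among the ligands, 4 of 6 were called lower on day 6 under the KO label, with a median log2 ratio of -2.09. *Dll3*, which acts within the cell that makes it and inhibits Notch, was at 21.2 FPKM under the WT label and 1.18 under the KO label (log2 ratio -4.17), and *Dll4* gave the lowest ratio of the list on day 4 (1.91 and 0.371 FPKM, log2 ratio -2.37). *Jag2* was the highest of the list on both days, at 6.14 and 14.5 FPKM on day 4 (log2 ratio 1.24) and 6.40 and 7.91 FPKM on day 6. On day 4 the ligands had 1 call higher and 2 lower, with a median of -0.95. The receptors had 0 of 3 called on day 4 (median 0.49) and 1 of 3 lower on day 6 (median 0.02). Among the receptors above 1 FPKM, *Notch1* was the lowest on both days, with log2 ratios of -0.40 and -1.14. *Notch3* was the highest on day 4 (0.61) and *Notch2* on day 6 (0.58).

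Of the 7 genes that glycosylate receptors or ubiquitinate ligands, 2 were called lower on each day, with medians of -0.42 and -0.10. The Fringe gene *Mfng*, which modifies the receptors with sugars, was the lowest of its list on both days, at 11.9 and 2.84 FPKM on day 4 and 30.5 and 2.80 FPKM on day 6 (log2 ratio -3.44). *Mib2*, a ubiquitin ligase for ligands, was the highest of that list, with log2 ratios of -0.11 on day 4 and 0.83 on day 6. Of the receptor proteases, 2 of 7 were called higher on day 4, led by *Psen2* (5.06 and 13.3 FPKM, log2 ratio 1.39), with a list median of 0.29, while *Adam10* was lowest (log2 ratio -0.32). On day 6, 0 of the 7 were called (median -0.38), and *Psen2* was highest (0.35) and *Aph1b* lowest (-0.52).

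Among the nuclear partners 0 of 3 were called on day 4 (median -0.32) and 1 lower on day 6 (median -0.29). *Rbpj* was at 33.4 and 46.0 FPKM on day 4 and 33.5 and 59.7 FPKM on day 6, the highest log2 ratio of its list on both days (0.46 and 0.83). *Maml1* was lowest on day 4 (-0.35) and *Maml3* on day 6 (-1.62), both genes being Mastermind coactivators. Among 3 feedback genes and inhibitors 0 were called on day 4 (median 0.10) and 1 lower on day 6 (median -0.72). *Nrarp*, a Notch target that feeds back on the pathway, was at 15.2 and 2.58 FPKM on day 6 (log2 ratio -2.56) and also the lowest of its list on day 4 (-0.74). The highest of that list were *Numbl* on day 4 (0.30) and *Numb* on day 6 (-0.06), both of which restrain Notch.

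Of the listed genes of the Groucho/Tle family, which were not sorted by whether they bind Hes proteins, 1 of 5 was called on day 4. This was *Tle6*, at 1.89 and 9.23 FPKM (log2 ratio 2.29). On day 6, 0 of 6 were called, and *Tle6* was again highest (0.97). The medians were 0.20 and 0.26. *Tle1* was lowest on both days, with log2 ratios of -0.06 and -0.68. Among the Id genes, whose products bind helix-loop-helix proteins without binding DNA, 2 of 4 were called lower on day 4 (median -1.25) and 1 on day 6 (median -0.41). *Id1* was lowest on day 4 (69.0 and 23.3 FPKM, log2 ratio -1.57) and *Id4* highest (-0.24). On day 6 *Id4* was lowest (-1.32) and *Id3* highest (0.09). The bHLH-Orange relatives *Bhlhe40* and *Bhlhe41* were called higher under the KO label on both days, *Bhlhe40* at 6.15 and 26.4 FPKM on day 4 (log2 ratio 2.10) and 1.45 on the log2 scale on day 6. *Bhlhe41* gave 1.89 and 1.03, and the third relative, *Helt*, stayed below 1 FPKM.

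Of the 7 proneural genes, the kind of target that HES1 and HES5 are known to repress, 5 passed 1 FPKM on days 4 and 6. On day 4, 4 of these 5 were called lower under the KO label (median log2 ratio -2.51) and on day 6, 5 of 5 (median -3.34), where the median of all loci was -0.03 and -0.00. *Neurog2* was lowest on both days, at 15.8 and 1.62 FPKM on day 4 (log2 ratio -3.28) and 44.3 and 0.219 FPKM on day 6 (log2 ratio -7.66). *Neurod1* was the highest of these 5 on day 4 (log2 ratio -0.96). No member of the list was called higher. *Atoh1* and *Neurog3* stayed below 1 FPKM, *Atoh1* at 0.0919 and 0.203 FPKM on day 4 and 0.116 and 0.42 FPKM on day 6, and *Neurog3* at 0.0597 and 0.0872 FPKM on day 4 and 0.132 and 0.179 FPKM on day 6, both with the higher value under the KO label.

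**Figure D4:**
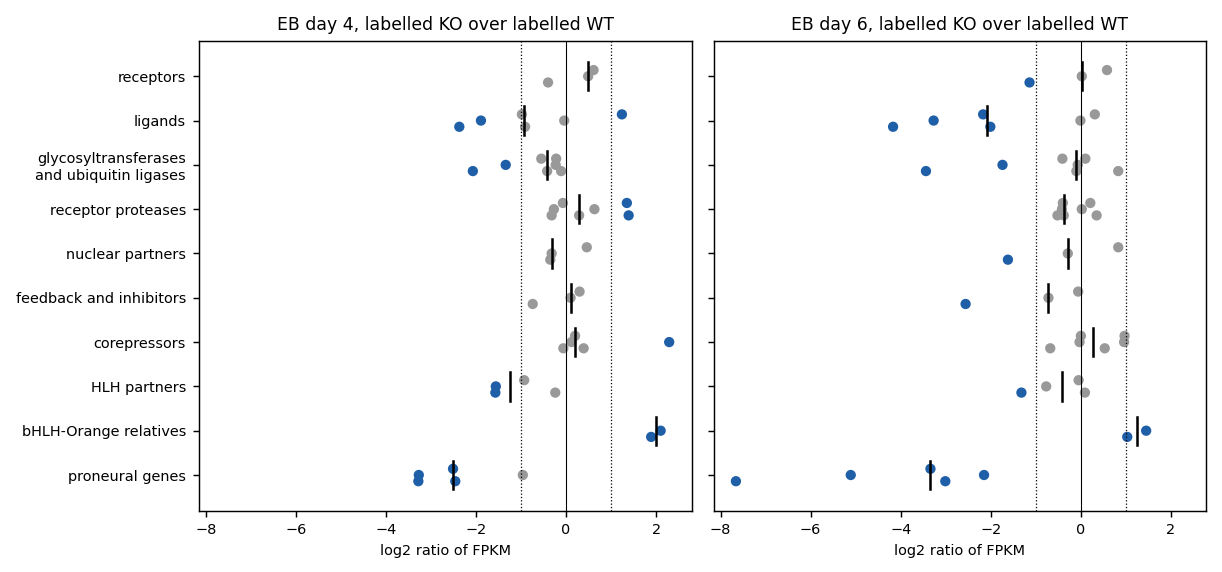
Log2 ratio of FPKM, library labelled KO over library labelled WT (x axis), for genes above 1 FPKM of each role (y axis) on day 4 (left) and day 6 (right), with blue points past 2-fold (dotted lines) and a black bar at each median. Ligands and proneural genes lie mostly to the left, with medians of -2.09 and -3.34 on day 6, and the 2 bHLH-Orange relatives lie to the right.

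The loci whose course was most like that of *Hes5* were sought among 10593 loci above 5 FPKM in at least 1 of the 8 culture libraries, by the mean absolute difference of log2(FPKM + 1) after centring. The nearest were *Nkx6-1* (0.30), *Hoxd3* (0.37), *Unc5a* (0.40), *Hoxd4* (0.47) and *Neurog2* (0.52). *Nkx6-1*, a homeodomain factor of ventral progenitors, was at 30.2 and 2.67 FPKM on day 4 and 32.2 and 1.08 FPKM on day 6 under the WT and KO labels. The nearest member was *Hey1*, at a distance of 1.22. *Hes5* was the member that met the minimum span for this search, 3 on that scale, with 5.99. *Hey1* followed with 2.36.

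The peak lists place TAF9B near 5 members and RNA POL2 at the start sites of 4, of which *Hes5*, *Hes6* and *Hey1* had both. A TAF9B peak lay within 50 kb of the TSS (midpoint to the 5′ end of the deposited locus) of 5 of the 9 members, *Hes3*, *Hes5*, *Hes6*, *Hes7* and *Hey1*, and of 66.6% of 12607 genes above 1 FPKM on day 6. Of the 6 members above 1 FPKM on day 6, 4 had such a peak. At the TSS itself, within 500 bp, TAF9B had a peak at 1 member, *Hes6*, and at 27.2% of the expressed genes. An RNA POL2 peak lay within 50 kb of all 9 members and of 75% of expressed genes, and within 500 bp of the TSS of 4 members, *Hes1*, *Hes5*, *Hes6* and *Hey1*, and of 49.3% of expressed genes. The same 4 had the highest maxima over the 8 culture libraries, from 12.2 FPKM for *Hey1* to 71.0 for *Hes5*, the next being *Hey2* at 2.90. Each antibody was sequenced once, so the peaks have no replicate.

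*Hes6* carried both. Its TSS peak of TAF9B, chr1:93309747-93310017, covers the start of the gene with its midpoint 83 bp upstream and a MACS score of 108 (higher scores are stronger peaks; percentile 66.8 of the list). The second peak, chr1:93310571-93310872 with a score of 106, lies 922 bp upstream of this TSS and 106 bp upstream of the start of the alternative transcript. A single RNA POL2 peak 1730 bp wide, chr1:93309372-93311101, spans both and has a score of 643 (percentile 96.2). With 5 TAF9B peaks within 50 kb, *Hes6* stood with the 4.25% of expressed genes that had at least as many. Only 3 of the 5 had *Hes6* as the gene with the nearest TSS, the third being 15.6 kb upstream with a score of 51.2.

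*Hes5* had no TAF9B peak at its TSS and 4 within 50 kb, a number reached by 9.07% of expressed genes. They lay 16.4, 14.4 and 2.58 kb upstream, with scores of 113, 115 and 68.1, and 36.0 kb downstream within reach of *Plch2*, with a score of 65.7. The peak at 16.4 kb was nearer by a few bases to the TSS of *Tnfrsf14*. RNA POL2 had a peak across the *Hes5* TSS, chr4:154334857-154335471, with a score of 139, and a stronger one of 305 at the neighbouring *Pank4* TSS, 3.38 kb from that of *Hes5*. No RNA POL2 peak overlapped any of these 4.

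*Hey1* had a TAF9B peak upstream and an RNA POL2 peak across its TSS with a score of 104. *Hes1* had no TAF9B peak within 50 kb, the nearest being 56.2 kb upstream at another gene, although RNA POL2 had peaks at its TSS (score 267) and in its body (score 56.1). *Hes7* had a TAF9B peak 2.37 kb into the gene with a score of 126 and no RNA POL2 peak at its TSS, while its other TAF9B peaks, 20.4 to 23.3 kb upstream, had *Per1* as the nearest gene. The *Hes3* peak was at the TSS of *Rpl22*, 34.1 kb away. *Hes2*, *Hey2* and *Heyl* had none within 50 kb.

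Of the 6 members above 1 FPKM on day 6, the 4 with a TAF9B peak within 50 kb were those called lower under the KO label, *Hes5* (log2 ratio -5.52), *Hey1* (-2.68), *Hes6* (-1.72) and *Hes7* (-1.58). *Hes1* (-0.22) and *Hey2* (-0.31), with no such peak, were not called. This match holds at 50 kb and at neither 10 nor 100 kb. At 100 kb *Hes1* also had a peak, at 56.2 kb, and at 10 kb *Hey1* had none. It also needs the calls of *Hes5* and *Hes7*, which were above 1 FPKM in the library labelled WT alone. Over all expressed genes, 10% of those with a TAF9B peak within 50 kb and 8.88% of those without were called lower, and 8.44% and 14.3% higher. The peaks come from another clone and another day than the expression values, and 6 genes are too few for a relation to be drawn. At the edge of the window, *Heyl* had a TAF9B peak at 50.1 kb, *Hey1* another at 50.7 kb and *Hes2* one at 50.8 kb, just outside, and *Hes6* peaks at 46.4 and 46.9 kb, just inside. Of the 15 TAF9B peaks near members, 5 (33.3%) shared 1 bp or more with a peak of RNA POL2, as did 33.3% of all 10415 in the list.

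**Figure D5:**
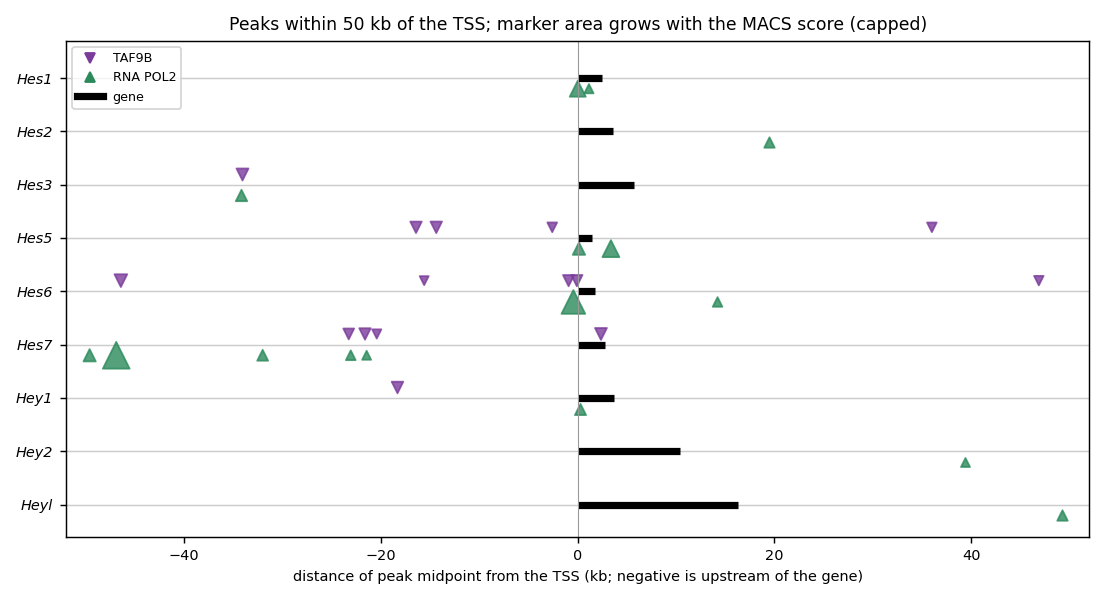
Peaks of TAF9B (purple, above the line) and RNA POL2 (green, below the line) by distance from the TSS in kb (x axis, negative upstream) for each of the 9 genes (y axis), with marker area growing with the MACS score and black bars for the gene bodies. *Hes6* has TAF9B peaks at and 0.922 kb upstream of its TSS, *Hes5* has them 2.58, 14.4 and 16.4 kb upstream, and *Hes1*, *Hes2*, *Hey2* and *Heyl* have none in the window.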

How the data were processed

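The data were 11 RNA-seq libraries in 6 tables and the peak lists of 2 ChIP-seq libraries, all on mm9. The FPKM values were deposited by the authors, who sequenced poly-A RNA, mapped the reads to RefSeq genes with TopHat and ran Cuffdiff, separately for each table. Peaks were called by the authors with MACS on reads mapped with Bowtie, and their deposited score was used as given. Versions and options of these tools are not given in the sources used here. The tables also hold the authors' fold changes and p-values, which were not used.

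Symbols came from RefSeq accessions, and 22804 of 23122 loci had one, after 30 repeated entries were left out. Ratios of FPKM were computed without a pseudocount and called past 2-fold above 1 FPKM in at least 1 library. There was no test, since each condition had 1 library, and no sample was a replicate. Strands came from GENCODE vM1 for 21344 loci. A peak was assigned by its midpoint, within 50 kb of a TSS or 500 bp at it, and the overlap was at least 1 bp. Named were the 9 members, *Taf9b*, the highest and lowest ratio of each list on days 4 and 6, and the 5 loci nearest to *Hes5*; markers and neighbours of peaks were named beside them, the neighbours after the peaks were seen. Of 53 listed symbols, 51 were matched, and some listed items are not reported here. The members and lists were chosen with earlier results of these data known. Alternatives were pseudocounts, centring, other limits on low values and other peak windows. The calling code was run on simulated data with planted changes well past 2-fold. This checks the code and does not show how reliable a call is, least of all at low FPKM. Python 3.11.15 was used with numpy 2.4.6, pandas 2.3.3 and matplotlib 3.10.9.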

Additional observations from a re-analysis of the deposited data

Results flagged for a closer look

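*Hes6* lay on opposite sides of equality in different tables, by more than 0.5 on the log2 scale on each side. The log2 ratio of the library labelled KO over that labelled WT was 0.79 on day 2 and 0.66 in spinal column, and -0.51 on day 4 and -1.72 on day 6. The differences between these ratios were 1.30 for day 2 against day 4, 2.51 for day 2 against day 6, -1.18 for day 4 against spinal column and -2.39 for day 6 against spinal column. *Hes7* gave 0.90 on day 4 and -1.58 on day 6, a difference of 2.48, at levels of at most 1.29 FPKM, which can rest on a few reads. With 1 library per condition these differences were not tested.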

How the results depend on the processing

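Of 193 recomputed ratios of single members, 183 stayed on the same side of 2-fold, 10 came inside it and 0 changed sign after being called, over pseudocounts of 0.1 and 1 FPKM, centring and the other ES table. With 1 FPKM added, *Hes7* from day 4 to 6 came to 0.52 (WT) and -0.56 (KO), and from day 2 to 4 under KO to 0.59. *Hes7* on day 6 came to -0.68, KO label over WT label. *Hey1* from day 2 to 4 came just inside 2-fold (WT) and to 0.85 (KO), *Hey2* to 0.84 (KO) and, from day 4 to 6, -0.68 (WT). Centring gave 0.96 for *Hey1* at the KO step from day 2 to 4, and a pseudocount of 0.1 FPKM -0.97 for *Hey2* at the WT step from day 4 to 6.

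Counts of called members moved by more than 1.5 times in these cases. With no filter on low values they were 1 in ES cells, 2 on day 4, 2 in spinal column, 4 from ES cells to day 2 (WT), 6 for the same step (KO) and 5 from day 4 to 6 (KO). With 1 FPKM required in both libraries they were 2 on day 6, 2 from day 2 to 4 (WT), 3 for that step (KO), 1 from day 4 to 6 (KO) and 3 in spinal cord against ES cells. Above 5 FPKM they were 2 from day 4 to 6 (WT), 3 from day 2 to 4 (KO) and 1 from day 4 to 6 (KO). Adding 1 FPKM gave 2 from day 4 to 6 (WT) and 3 from day 2 to 4 (KO). The filters change how many genes are eligible. TAF9B peaks were near 3 members within 10 kb and 8 within 100 kb. RNA POL2 peaks were near 4 members within 10 kb, 4 by nearest TSS and 4 with scores above the list's median. Counts at the TSS and of overlapping peaks stayed within 1.5 times, also with GENCODE starts, an alternative chosen after seeing the data.

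No paired analysis was possible because each condition had 1 library and the labels give no replicate numbers. The absence of replicates limits every comparison, values below 1 FPKM can rest on a few reads, genotype and clone cannot be told apart in culture, and *Taf9b* itself went against the labels there.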
